A study of Mus musculus with 2 samples.

Results

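Gfap-high astrocytes of the injured mouse spinal cord are described here from single-nucleus RNA counts. They were picked by marker counts in each nucleus, and 1077 nuclei met the rule among the 31743 that passed the quality filter, 524 in the library from PBS-treated mice and 553 in the library from mice treated with AEVs. A nucleus was kept with at least 500 UMIs (unique molecular identifiers, each standing for 1 captured RNA molecule), at least 300 genes and under 5% of its UMIs from mitochondrial genes. It counted as an astrocyte with at least 5 UMIs summed over Aqp4, Slc4a4, Slc1a2, Gja1 and Agt, with at most 5 over the neuronal genes Snhg11, Rbfox3 and Syt1, at most 3 over the oligodendrocyte genes Mog, St18 and Prr5l, and at most 5 over the ciliary genes Dnah12, Spag17 and Hydin of ependymal cells. It was called Gfap-high where Gfap reached 10 UMIs per 10000. The 1146 nuclei that met every other condition but had less Gfap, 519 in the PBS library and 627 in the AEVs library, are called Gfap-low and serve as the comparison.

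Wild-type C57BL/6 mice aged 6 to 8 weeks had a contusion of the cord at the level of the T10 vertebra from a falling rod (weight 5 g, diameter 1 mm, drop 6 cm). Both groups then had tail-vein injections of 100 µL on each of 5 days, the PBS group of buffer alone and the AEVs group of buffer that carried 100 µg of extracellular vesicle protein, the vesicles being athlete-derived according to the title of the series. Both groups had anaesthesia, daily antibiotics and bladder drainage, and no uninjured cord is among the samples. Nuclei from frozen cord taken at day 7 were sequenced in droplets from the 3′ end of the RNA, with 1 library per group and the cords of 3 mice in each. The group and the library are therefore the same thing, so a difference between AEVs and PBS cannot be told apart from a difference between 2 libraries, and it has no replicate check. Intervals below are exact 95% intervals that cover counting error only.

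Astrocytes are the glia that line blood vessels and synapses, take up glutamate, buffer potassium and move water through aquaporin 4. Gfap encodes an intermediate filament protein of these cells, abundant in the fibrous astrocytes of white matter and scarce in the protoplasmic astrocytes of grey matter. After injury astrocytes of both kinds can become reactive: they make more Gfap and vimentin, secrete acute-phase proteins such as lipocalin 2, and near the lesion form a border of newly shaped processes. A high Gfap count alone does not separate a white-matter astrocyte from a reactive one.

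The files held 15325 barcodes and 82953601 UMIs for PBS, and 17055 barcodes and 81875882 UMIs for AEVs, and 14794 and 16949 nuclei were kept. Gfap-high nuclei had a median of 3725 UMIs in the PBS library and 3077 in the AEVs library, and their summed counts were 2151337 and 2049395 UMIs. Mitochondrial genes gave 1.31% of those UMIs in the PBS library and 0.967% in the AEVs library. A doublet caller marked 5.21% of kept nuclei in the PBS library and 8.26% in the AEVs library, and among Gfap-high nuclei 11 of 524 and 13 of 553. These were kept, and leaving them out is among the alternatives given at the end. Both libraries shared 177 barcode sequences, and 8 Gfap-high nuclei of PBS and 2 of AEVs carried one of them.

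The genes of the rule chose the nuclei, so their levels are a description with no test. Levels are given as CPM, the UMIs of a gene per 1000000 UMIs summed over the nuclei of a set in a library. Gfap (chr11:102887336-102900912, minus strand of mm10, a protein-coding gene) stood at 3209 CPM (PBS) and 3127 CPM (AEVs) in Gfap-high nuclei and at 289 CPM (PBS) and 330.1 CPM (AEVs) in Gfap-low nuclei. Its median was 24.2 UMIs per 10000 in both libraries. Single nuclei reached 367 in the PBS library and 188 in the AEVs library. Aqp4, the water channel of astrocyte endfeet, was at 2827 CPM (PBS) and 1819 CPM (AEVs) against 996 CPM (PBS) and 765 CPM (AEVs) in Gfap-low nuclei. Slc1a2, the main glutamate transporter, was at 4464 CPM (PBS) and 3569 CPM (AEVs) against 2959 CPM (PBS) and 2754 CPM (AEVs). The connexin gene Gja1 was at 952 CPM (PBS) and 834 CPM (AEVs) against 650.2 CPM (PBS) and 646 CPM (AEVs). The bicarbonate cotransporter gene Slc4a4 stood at 3561 CPM (PBS) and 3141 CPM (AEVs) in Gfap-high and 3169.7 CPM (PBS) and 3175 CPM (AEVs) in Gfap-low nuclei. Agt, which encodes angiotensinogen, stood at 1754 CPM (PBS) and 2591 CPM (AEVs) against 611 CPM (PBS) and 1610.3 CPM (AEVs). Aqp4, Slc1a2, Gja1 and Agt were thus higher where Gfap was higher in both libraries, whereas Slc4a4 was lower by a small margin in AEVs. Between libraries Aqp4 was the rule gene that was lower in AEVs by most and Agt the one that was higher by most, in Gfap-high and Gfap-low nuclei alike.

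**Figure D1:**
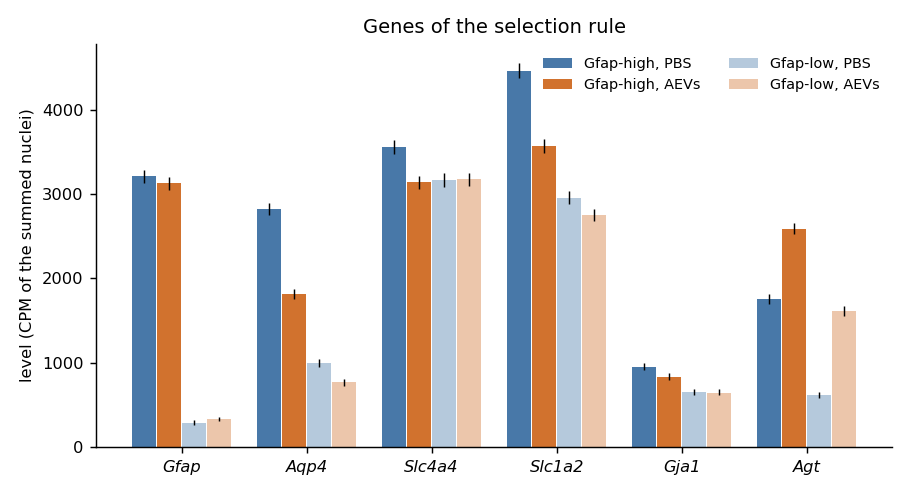
Summed level of 6 genes of the selection rule in CPM, in Gfap-high and Gfap-low nuclei of each library, with bars for the 95% counting interval. Gfap stands at 3209 CPM (PBS) and 3127 CPM (AEVs) in Gfap-high nuclei, and Agt is higher in AEVs than in PBS in both sets.

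All 12 genes of the astrocyte marker list were found in both libraries, and their summed level in Gfap-high nuclei was 17454 CPM in PBS and 15926 CPM in AEVs. Of these 12, Gfap, Aqp4, Gja1 and Slc4a4 belong to the rule, so the sum does not check it. The other 8 were not used to choose nuclei. Among them Aldoc, an astrocyte glycolytic enzyme, was at 2509.6 and 2769 CPM in PBS and AEVs, the neurotensin receptor gene Ntsr2 at 1191 and 875 CPM and the folate enzyme gene Aldh1l1 at 107 and 112 CPM. None of the 8 was absent from either library. Nuclei just inside and just outside the Gfap limit differed little: the lowest inside had 10.02 (PBS) and 10.01 (AEVs) per 10000, and the highest outside had 9.97 and 9.94. Between 10 and 12 per 10000 lay 52 Gfap-high nuclei of PBS and 74 of AEVs, and between 8 and 10 lay 47 and 69 Gfap-low nuclei. In 25 nuclei of PBS and 16 of AEVs a single Gfap UMI was enough to pass, and 92 and 94 Gfap-high nuclei had under 1000 UMIs. The set is a range of a continuous measure and not a separate cluster.

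RNA of other cells was present in many of these nuclei. Over 2 UMIs of oligodendrocyte markers were found in 76.9% of Gfap-high nuclei in PBS and 70.5% in AEVs, and over 2 UMIs of neuron markers in 47.3% and 47.9%. The 10 oligodendrocyte markers summed to 2599 CPM in PBS and 1997 CPM in AEVs, against 23865 and 21442 CPM in nuclei sorted by those same markers. Neuron markers stood at 890.1 and 911 CPM, precursor markers at 820.0 and 628 CPM, microglia and macrophage markers at 719.6 and 689 CPM, and Schwann cell markers at 439.7 and 482 CPM. Fibroblast markers were at 465 and 344 CPM, endothelial markers at 157 and 119 CPM, mural markers at 157 and 172 CPM, and T and NK cell markers at 26.5 and 17.6 CPM. Ependymal markers were at 77.2 and 60.0 CPM, and 1 of 10 had no UMI in each library, Spag17 in PBS and Dnah6 in AEVs. Erythroid genes were at 74.8 CPM in PBS and 208 CPM in AEVs. Most of these sums were lower in AEVs than in PBS, and the neuron, mural, Schwann and erythroid sums were higher. Leaving out nuclei with over 2 UMIs of precursor, myeloid, fibroblast or vascular markers reduced the set from 524 to 214 nuclei in PBS and from 553 to 273 in AEVs. Values under that setting are given where they differ, and the part of other RNA was otherwise not tested.

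The share of Gfap-high nuclei was similar in both libraries. They were 3.54% of kept nuclei in PBS (exact Clopper-Pearson interval 3.25% to 3.85%) and 3.26% in AEVs (3.00% to 3.54%), a ratio of 0.921 with a counting interval of 0.816 to 1.04. Of all nuclei that met the astrocyte conditions they were 50.2% in PBS (47.2% to 53.3%) and 46.9% in AEVs (44.0% to 49.8%), a ratio of 0.933 (0.826 to 1.05). Both intervals include 1, so a difference in share was not detectable with these counts, and a share of nuclei in 1 pool per group has no error between mice.

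Within the set, the nuclei with most Gfap were those with most of the scar-border and white-matter genes and least of the grey-matter genes. Gfap-high nuclei were split at 20 and 40 Gfap UMIs per 10000, which gave 213, 165 and 146 nuclei of PBS and 227, 165 and 161 of AEVs. The top range was shallower, with a median of 1752.5 UMIs in PBS and 1486 in AEVs against 4011 and 3378 in the lowest range. Since the total is the denominator of the Gfap value, depth and Gfap are tied together in this split, and it is a description. At least 2-fold higher in the top than in the lowest range in both libraries were 172 of 9844 genes (1.75%), and at least 2-fold lower 521 (5.29%). A ratio above 1 in both libraries was found for 31.3% of these genes and a ratio below 1 in both for 42.1%, the shares against which the list counts below stand. The median log2 ratio of all genes was -0.08 in PBS and -0.16 in AEVs. Oligodendrocyte markers were also higher in the top range in both libraries, 6 of 7 of them, with medians of 0.68 and 0.58. Of 6 precursor markers 3 were lower in both libraries and 1 higher, with medians of -0.62 and -0.52. The part of either marker list in the pattern was not tested.

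Vim, the vimentin gene, had 444, 789 and 2175 CPM from the lowest to the top range in PBS and 856, 1477 and 3344 CPM in AEVs. Serpina3n, an acute-phase protease inhibitor gene and a widely used marker of reactive astrocytes, had 279, 503 and 742 CPM in PBS and 446, 629.8 and 1549 CPM in AEVs. The small heat shock protein gene Hspb1 had 426, 531 and 1727 CPM and 1003, 2228 and 4046 CPM. These genes were higher with each step of Gfap in both libraries. Mt1, a metallothionein gene, had 4972, 6677 and 13214 CPM in PBS and 7256, 12666 and 20868 CPM in AEVs. S100b, a calcium-binding protein gene, had 517, 542 and 1242 CPM and 402, 666 and 1145 CPM. The complement component gene C3 had 299, 453 and 954 CPM and 188, 314 and 662 CPM, so C3 was higher with Gfap in both libraries while its level was lower in AEVs in each range. Of 28 reactive and scar-border genes 18 were higher in the top range in both libraries and 2 lower, with median log2 ratios of 0.77 in PBS and 0.94 in AEVs. Of 13 white-matter genes 8 were higher in both and 2 lower (medians 0.92 and 0.43). Antioxidant and metal genes were higher in 20 of 25 cases (0.61 and 0.80), lipid genes in 18 of 26 (0.38 and 0.41), heat shock genes in 10 of 14 (0.50 and 0.75) and immediate early genes in 8 of 10 (1.18 and 0.96).

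Genes of grey-matter astrocytes ran the other way. The glypican gene Gpc5 had 2394, 1189.6 and 339 CPM from the lowest to the top range in PBS and 1908, 1030.5 and 404 CPM in AEVs. The cation channel gene Trpm3 had 3618, 2447 and 879.9 CPM and 3132, 1988 and 783 CPM. Slc6a11, the GABA transporter GAT-3, had 830.3, 699 and 372 CPM in PBS and 558, 477 and 283 CPM in AEVs, and the amino acid transporter gene Slc7a10 had 541, 511 and 227 and 319, 285 and 125 CPM. All of these were lowest where Gfap was highest. Of the 14 grey-matter genes 13 were lower in the top range in both libraries and 1 was higher, with median log2 ratios of -1.12 and -1.10. Glutamate, GABA and glycine handling genes were lower in 11 of 17 cases (-0.54 and -0.73) and lineage and Notch genes in 12 of 19 (-0.42 and -0.75). Lcn2, the lipocalin 2 gene, had no common course: it had 184, 387 and 151 CPM in PBS and 453, 474 and 1922 CPM in AEVs, and only in AEVs was the top range the highest. Over all Gfap-high nuclei, the 5 highest in Lcn2 held 54.4% of its UMIs in PBS and 51.7% in AEVs. How far its course rests on those few nuclei was not tested.

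**Figure D2:**
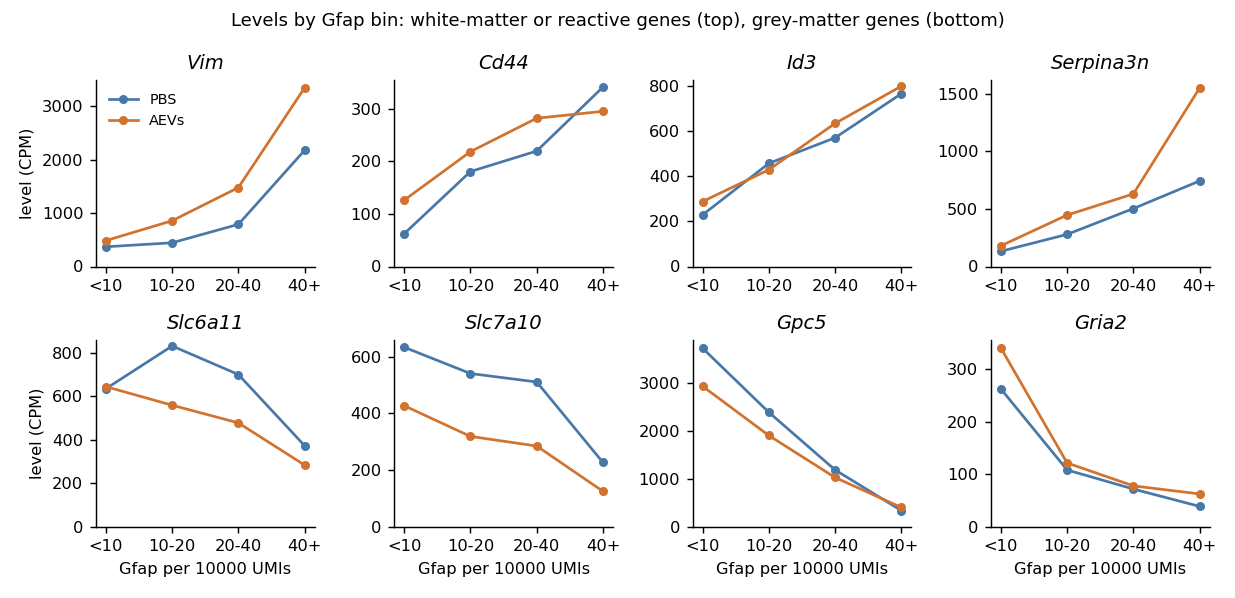
Level in CPM of 4 genes of white-matter or reactive astrocytes (top row) and 4 genes of grey-matter astrocytes (bottom row) over Gfap-low nuclei and the 3 Gfap ranges of Gfap-high nuclei, by library. Vim goes from 444 to 2175 CPM in PBS and from 856 to 3344 CPM in AEVs over the 3 ranges, while Gpc5 goes from 2394 to 339 and from 1908 to 404 CPM.

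Against Gfap-low nuclei the same contrast appeared. The rule fixed this contrast, so it is given as levels with no test, and agreement of the 2 libraries is not replication of a treatment. Of 12005 genes with enough UMIs, 169 (1.41%) were at least 2-fold higher in Gfap-high than in Gfap-low nuclei in both libraries and 404 (3.37%) at least 2-fold lower. A ratio above 1 in both libraries was found for 32.6% of genes and a ratio below 1 in both for 42.8%. The median log2 ratio over all genes was -0.04 in PBS and -0.11 in AEVs. Oligodendrocyte markers were higher in Gfap-high nuclei in both libraries in 5 of 7 cases, at 2599 and 1997 CPM against 1404 and 1282 CPM, and the mitochondrial share was 1.31% and 0.967% against 0.800% and 0.602%. Their part in this contrast was not tested. White-matter and fibrous astrocyte genes were higher in both libraries in 11 of 13 cases, 7 of them at least 2-fold, with medians of 1.30 in PBS and 1.04 in AEVs. Fabp7, a fatty acid binding protein of immature and white-matter astrocytes, stood at 281 and 216 CPM in Gfap-high nuclei and 114 and 89.9 CPM in Gfap-low nuclei. Cd44, a hyaluronan receptor gene, stood at 232 and 259 CPM against 62.3 and 126 CPM, and Id3, a target of BMP signalling, at 571 and 591 CPM against 229 and 288 CPM. Grey-matter genes were lower in both libraries in 10 of 14 cases, 4 of them at least 2-fold (medians -0.33 and -0.62). Gria2, a glutamate receptor subunit gene, stood at 79.0 and 92.2 CPM against 262 and 340.2 CPM in Gfap-low nuclei. Precursor markers were lower in Gfap-high nuclei too, at 820 and 628 CPM against 1850.3 and 1359 CPM. Their part in the values of the grey-matter genes was not tested.

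Named by the fixed rule as highest over Gfap-low nuclei were Dhrs1, Tmie, C3, Ccdc3, Hspb6, Hspb1, Kcne1l, Serpina3n, Ucma, Fxyd1, Slc43a3 and Car5b. Dhrs1, a short-chain dehydrogenase gene, had 349.6 and 423 CPM in Gfap-high against 71.8 and 79.4 CPM in Gfap-low nuclei of PBS and AEVs, log2 ratios of 2.28 and 2.41. C3 had 509 and 348 CPM against 111 and 68.3 CPM, log2 ratios of 2.20 and 2.35. Serpina3n had 467 and 783 CPM against 132 and 179 CPM, log2 ratios of 1.82 and 2.13. Fxyd1, a regulator of the sodium pump, had 1549.7 and 1486 CPM against 334 and 454 CPM, log2 ratios of 2.21 and 1.71. Kcne1l, a potassium channel accessory subunit gene, had 100.4 and 62.0 CPM against 18.5 and 17.1 CPM, and its level was at most 3.41 CPM in any class of nuclei sorted by other markers. In each of these the Gfap-high nuclei of both libraries lay above the Gfap-low nuclei of both. Reactive and scar-border genes were higher in both libraries in 21 of 30 cases, 9 at least 2-fold, with medians of 0.91 and 0.85. Antioxidant and metal genes were higher in 19 of 25 cases (5 at least 2-fold) and lipid genes in 19 of 26 (6 at least 2-fold), among them Apoe with 16544 and 22623 CPM against 6213 and 9850.0 CPM and Clu with 2788 and 4665 CPM against 912 and 1399 CPM, the genes of 2 lipoproteins that astrocytes secrete.

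Genes named as lowest were Slc4a10, Arhgap20, Ust, Adamtsl3, Ntn1, Fn1, Slc38a2, Tanc1, Fam227b, Slit2, Reps2 and Grk5, and of these 8 were highest in nuclei sorted by fibroblast markers. Fibroblast markers in Gfap-low nuclei summed to 2728 CPM in PBS and 821 CPM in AEVs, against 465 and 344 CPM in Gfap-high nuclei. Fn1, the fibronectin gene, had 53 and 25.9 CPM in Gfap-high and 308 and 85.4 CPM in Gfap-low nuclei. With nuclei of either set left out where over 2 UMIs of precursor, myeloid, fibroblast or vascular markers were found, fibroblast markers were at 252 and 192 CPM in Gfap-high and 234 and 218 CPM in Gfap-low nuclei. Then 114 genes in place of 404 were at least 2-fold lower in both libraries. Of the 12 named genes 7 were then no longer lower in both. The higher of their 2 log2 ratios was 2.54 for Fn1, 1.81 for Arhgap20, 1.71 for Adamtsl3, 0.76 for Grk5, 0.64 for Reps2, 0.49 for Slc4a10 and 0.14 for Tanc1, some on few UMIs. That setting also lowered precursor markers in Gfap-low nuclei, from 1850.3 and 1359 CPM to 339 and 348 CPM, and endothelial markers, from 426 and 445 CPM to 26.3 and 13 CPM. Thinning to 1000 UMIs before the rule was applied picked other nuclei. It gave 519 (PBS) and 595 (AEVs) Gfap-high and 327 (PBS) and 442 (AEVs) Gfap-low nuclei, and the count was 19. Which of these changes the lower side of the contrast depends on was not tested. With nuclei that carried markers of other types left out, the higher side had 195 genes in place of 169.

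**Figure D3:**
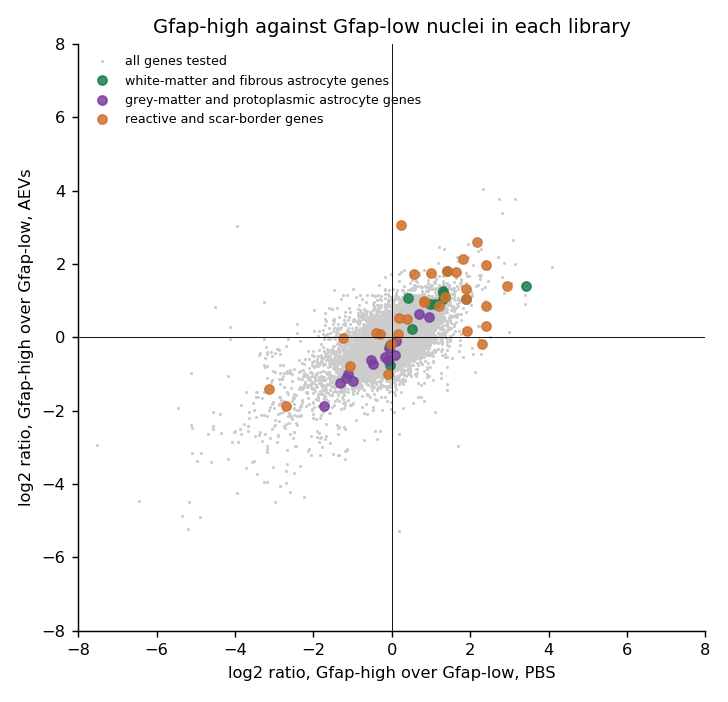
Log2 ratio of Gfap-high over Gfap-low nuclei per gene, in PBS (horizontal) and AEVs (vertical), all genes in grey with the white-matter, grey-matter and reactive lists in colour. White-matter genes lie mostly in the upper right (medians 1.30 and 1.04) and grey-matter genes mostly in the lower left (medians -0.33 and -0.62).

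The AEVs library was then compared with the PBS library within Gfap-high nuclei, which is the comparison the study was designed for. Of 9844 genes with at least 50 UMIs over both libraries, 128 (1.3%) were at least 2-fold higher in AEVs and 83 (0.843%) at least 2-fold lower. With nuclei that carried markers of other types left out the counts were 63 and 33. With nuclei thinned to 1000 UMIs before the rule was applied, which also changed the nuclei picked, they were 57 and 40. Both settings applied the 50-UMI limit to smaller sums, so these counts are not out of 9844 genes and do not compare directly with 128 and 83. In the main setting a ratio above 1 was found for 50.1% of the 9844 genes, and the median log2 ratio was 0.00. The counting interval lay wholly above 1 for 11.3% of genes and wholly below 1 for 11.8%. In Gfap-low nuclei 1.8% of 9853 genes were at least 2-fold higher and 2.12% at least 2-fold lower. A log2 ratio of AEVs over PBS in brackets is followed by its counting interval. There is no test of these differences, since each group is 1 library, and the Gfap-high and Gfap-low nuclei of a library come from the same mice.

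Highest in AEVs by the naming rule were Gpx3, Rbm3, Cebpb, Lcn2, Cdo1, Cirbp, Fbln5, Hspb1, Retsat, Col5a3, Nbl1 and Tmem52. Gpx3, a secreted glutathione peroxidase gene (chr11:54902453-54910377, plus strand of mm10, a protein-coding gene), had 43 and 243 UMIs, which is 20 CPM in PBS and 119 CPM in AEVs, a log2 ratio of 2.57 (interval 2.10 to 3.07). Its UMIs came from 34 nuclei in PBS and 104 in AEVs. For shares of nuclei with a UMI, each nucleus already picked was thinned to 1000 UMIs, leaving out 92 and 94 shallower Gfap-high ones. After this, 2.08% of Gfap-high nuclei in PBS and 9.59% in AEVs had a Gpx3 UMI (6.49% and 18.8% unthinned). The thinned shares were 1.00% and 0.901% in nuclei sorted by neuron markers, whose median depth was 9539 and 7665 UMIs. In AEVs the exact interval of the share, 7.05% to 12.7%, lay above that of neuron-marked nuclei, whereas in PBS the interval of 0.957% to 3.92% includes it, so Gpx3 was not distinguishable from that background in PBS at this depth. In Gfap-low nuclei the log2 ratio of Gpx3 was 2.41.

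Hspb1 had 1665 and 4448 UMIs, 774 CPM in PBS and 2170.4 CPM in AEVs, a log2 ratio of 1.49 (interval 1.41 to 1.57). A Hspb1 UMI was found after thinning in 25.9% of Gfap-high nuclei in PBS and 50.5% in AEVs (43.9% and 68.9% unthinned), against 2.99% and 3.43% of neuron-marked nuclei. Hspb1 was thus both the most abundant of the 12 genes and spread over many nuclei. Lcn2, a secreted iron-carrier-binding protein gene of the acute phase, had 529 and 1695 UMIs, 246 CPM in PBS and 827 CPM in AEVs, a log2 ratio of 1.75 (interval 1.61 to 1.89). Its counts sat in few nuclei: 75 in PBS and 132 in AEVs had any, and the 5 highest held 54.4% and 51.7% of the UMIs. Without those 5 in each library the log2 ratio was 1.85, as large as with them. Cebpb, a transcription factor of the acute-phase response, had 24.2 CPM in PBS and 82.0 CPM in AEVs, a log2 ratio of 1.76 (interval 1.31 to 2.24). Its level was lowest in PBS Gfap-low nuclei at 12.1 CPM and highest in AEVs Gfap-high nuclei.

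The cold-inducible RNA-binding protein genes Rbm3 and Cirbp were both higher in AEVs. Rbm3 had 151 and 501 UMIs, 70.2 CPM in PBS and 244 CPM in AEVs, a log2 ratio of 1.80 (interval 1.53 to 2.07), and Cirbp had 33.9 CPM in PBS and 104 CPM in AEVs, a log2 ratio of 1.62 (interval 1.23 to 2.03). Other classes of nuclei showed ratios of like size: Rbm3 had log2 ratios of 1.36 in neuron-marked and 1.66 in oligodendrocyte-marked nuclei, and Cirbp 1.57 and 1.60. Fbln5, an elastic-fibre protein gene, had 26.5 CPM in PBS and 81.0 CPM in AEVs (log2 ratio 1.61, 1.17 to 2.07) in Gfap-high nuclei. Its log2 ratio was 0.06 in Gfap-low nuclei, 0.20 in neuron-marked and 0.11 in oligodendrocyte-marked nuclei. Nbl1, a secreted antagonist of BMP ligands, had 100.4 CPM in PBS and 245 CPM in AEVs (log2 ratio 1.29, 1.06 to 1.53) against 0.27 in Gfap-low nuclei. Both genes thus had a larger ratio in Gfap-high than in Gfap-low nuclei, and the difference between the sets was not tested. Of the others, Cdo1 (cysteine dioxygenase) had a log2 ratio of 1.63, Retsat (retinol saturase) 1.40, the collagen gene Col5a3 1.32 and the membrane protein gene Tmem52 1.22. In Gfap-low nuclei the log2 ratio was larger than in Gfap-high nuclei for Tmem52 (2.22), Cirbp (2.12), Col5a3 (1.94) and Hspb1 (1.91). There it was 1.75 for Cebpb, 1.23 for Rbm3, 1.15 for Retsat, 1.00 for Lcn2 and 0.85 for Cdo1. Among other classes of nuclei all 12 genes had a ratio above 1 in neuron-marked nuclei (5 at least 2-fold). In oligodendrocyte-marked nuclei 10 of 12 did (8 at least 2-fold). Of genes with enough UMIs, 5 of 5 were above 1 in precursor-marked nuclei and 6 of 9 in microglia- and macrophage-marked nuclei. In fibroblast-marked nuclei 7 of 9 were, and in endothelial-marked nuclei 3 of 4. The share of all genes above 1 in these classes was not computed, so the counts have no background to stand against.

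Lowest in AEVs were Myoc, Igtp, Aplnr, Ngef, Fos, Ncan, Rdh5, Papss2, Lix1, Tmem100, Ccn1 and Glt8d1. Myoc, the myocilin gene and a marker of astrocytes at the surface of the cord, had 305 and 30 UMIs, 142 CPM in PBS and 14.6 CPM in AEVs, a log2 ratio of -3.28 (interval -3.87 to -2.73). Its UMIs came from 52 nuclei of PBS and 18 of AEVs, and without the 5 highest in each library the log2 ratio was -3.47. In the top Gfap range Myoc had 328 CPM in PBS and 9.77 CPM in AEVs. After thinning, 7.41% of Gfap-high nuclei in PBS and 1.74% in AEVs had a Myoc UMI (9.92% and 3.25% unthinned), against 0.109% and 0.0392% of neuron-marked nuclei. Myoc-bearing nuclei were thus fewer in AEVs, and Myoc is the white-matter list member with the lowest ratio.

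Aplnr, the apelin receptor gene, had 76.2 CPM in PBS and 28.3 CPM in AEVs (log2 ratio -1.43, -1.89 to -0.99), and only 8.97 and 4.52 CPM in Gfap-low nuclei of the 2 libraries. Ncan encodes neurocan, a chondroitin sulfate proteoglycan of the glial scar, and had 46.9 CPM in PBS and 20.5 CPM in AEVs (log2 ratio -1.20, -1.75 to -0.66), with a log2 ratio of -1.13 in Gfap-low nuclei. Fos and Ccn1, genes switched on within minutes of a stimulus, had log2 ratios of -1.27 and -0.96, and -2.03 and -1.32 in Gfap-low nuclei. Papss2, which makes the sulfate donor for proteoglycans, had 80.9 CPM in PBS and 38.5 CPM in AEVs (log2 ratio -1.07, -1.47 to -0.68) but a log2 ratio of 0.39 in Gfap-low nuclei. Tmem100, a membrane protein gene, had 218 CPM in PBS and 109 CPM in AEVs (log2 ratio -0.99, -1.23 to -0.76) against -0.14 in Gfap-low nuclei. Rdh5 (a retinol dehydrogenase), Ngef, Lix1 and Glt8d1 had log2 ratios of -1.13, -1.33, -1.07 and -0.96. Of the 12 genes, 11 had enough UMIs in neuron-marked nuclei, where 9 had a ratio below 1 and 1 was at least 2-fold lower. In oligodendrocyte-marked nuclei 9 of 10 were below 1, and in precursor-marked nuclei 2 of 3. In microglia- and macrophage-marked nuclei 3 of 5 were below 1, and in fibroblast-marked nuclei 3 of 6. The share of all genes below 1 in these classes was not computed.

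**Figure D4:**
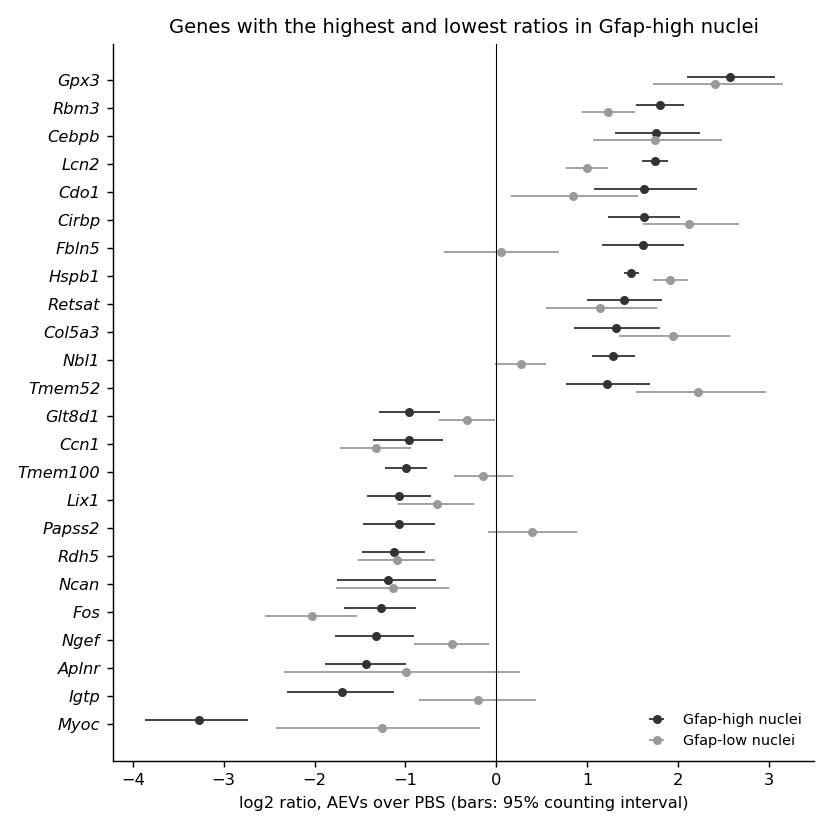
Log2 ratio of AEVs over PBS for the 24 genes named by the rule, in Gfap-high (dark) and Gfap-low (grey) nuclei, with bars for the 95% counting interval. In Gfap-high nuclei Gpx3 has the highest ratio (2.57) and Myoc the lowest (-3.28). In Gfap-low nuclei Fbln5 is at 0.06 and Nbl1 at 0.27, while Tmem52 at 2.22 and Cirbp at 2.12 are higher there than in Gfap-high nuclei.

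Reactive and scar-border genes were mixed, with more of them higher in AEVs. Of 28 with enough UMIs, 18 had a ratio above 1, 5 were at least 2-fold higher and 0 at least 2-fold lower, and the median log2 ratio was 0.45 against 0.00 for all genes. The 5 were Lcn2, Hspb1, Igfbp2, Nes and S100a6. Igfbp2, an insulin-like growth factor binding protein gene, had 73.9 CPM in PBS and 207 CPM in AEVs (log2 ratio 1.49, 1.22 to 1.76). S100a6, a calcium-binding protein gene, had 1025 CPM in PBS and 2133 CPM in AEVs (log2 ratio 1.06, 0.98 to 1.13). Nes, the nestin gene of immature and reactive astrocytes, had 14.4 CPM in PBS and 30.3 CPM in AEVs (log2 ratio 1.07, 0.43 to 1.74). Vim had 977 CPM in PBS and 1684 CPM in AEVs (log2 ratio 0.79, 0.71 to 0.86), and a Vim UMI was found after thinning in 35% of nuclei in PBS and 53.6% in AEVs (55.7% and 72.2% unthinned), against 1.90% and 2.84% of neuron-marked nuclei. Serpina3n had 467 CPM in PBS and 783 CPM in AEVs (log2 ratio 0.75, 0.63 to 0.86). Gfap itself, fixed by the rule at its lower end, stood at 3209 and 3127 CPM, and not all filament or acute-phase genes stood higher: the filament gene Synm had 27.9 CPM in PBS and 19.5 CPM in AEVs (log2 ratio -0.51, -1.13 to 0.09) and the ceruloplasmin gene Cp 138 CPM in PBS and 111 CPM in AEVs (log2 ratio -0.31, -0.57 to -0.06). On the lower side, Lgals1 (galectin 1) had a log2 ratio of -0.48, Tm4sf1 -0.43, the matrix protein gene Tnc -0.36 and the metalloproteinase inhibitor gene Timp1 -0.30. In Gfap-low nuclei the median of the list was 0.37.

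Interferon-stimulated genes, which code for antiviral proteins and their regulators, were split. Of 27 with enough UMIs, 20 had a ratio above 1, 2 were at least 2-fold higher and 1 at least 2-fold lower, with a median of 0.36. Rtp4 had 19.1 CPM in PBS and 57.1 CPM in AEVs (log2 ratio 1.58, 1.06 to 2.13) and Oasl2 26.0 CPM in PBS and 55.1 CPM in AEVs (log2 ratio 1.08, 0.61 to 1.57). Irf9, a subunit of the factor that binds interferon response elements, had 22.8 CPM in PBS and 44.4 CPM in AEVs (log2 ratio 0.96, 0.45 to 1.49). Ifit3 had 46.9 CPM in PBS and 88.8 CPM in AEVs (log2 ratio 0.92, 0.56 to 1.29). On the lower side were 2 genes of GTPases that interferon gamma induces: Igtp had 112 and 33 UMIs, 52.1 CPM in PBS and 16.1 CPM in AEVs (log2 ratio -1.69, -2.30 to -1.12), and Gbp7 had 30.7 CPM in PBS and 16.1 CPM in AEVs (log2 ratio -0.93, -1.58 to -0.31). Others of that kind lay near 1, Gbp3 at 0.16 and Iigp1 at -0.14 in log2. The chemokine gene Cxcl10 had 144 UMIs in 15 nuclei of PBS and 25 in 11 nuclei of AEVs, a log2 ratio of -2.46, and 76.4% of its PBS UMIs sat in 5 nuclei. Of Igtp's UMIs 45.5% in PBS and 24.2% in AEVs sat in 5 nuclei, and without these its log2 ratio was -1.22.

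Some genes on both sides carry the same promoter element, and 4 promoters are shown as examples. Cxcl10 among them belongs to the complement and chemokine list and not to the interferon list. The interferon-stimulated response element was searched as the letters GAAA, then 2 bases of any kind, then GAAA, on both strands in the RefSeq promoters of build GRCm38.p6, windows from 250 bases before to 50 bases after each gene's start. It was found in 3.44% of 32851 windows and for 3.99% of 27025 genes. Of these 27 interferon genes 20 had a window, and 14 of these held the element. Of the genes named above as higher in AEVs, Oasl2 and Irf9 had no match and Rtp4 had no window. Printed 5′ to 3′ on the gene's strand are the 250 bases before the start of Ifit3, which was higher in AEVs, and of Igtp, Gbp7 and Cxcl10, which were lower, with the element in capitals, either as searched or as its reverse complement. Ifit3 lies at chr19:34583279-34583528 on the plus strand, Igtp at chr11:58199306-58199555 on the plus strand, Gbp7 at chr3:142530086-142530335 on the plus strand and Cxcl10 at chr5:92348890-92349139 on the minus strand.
Ifit3: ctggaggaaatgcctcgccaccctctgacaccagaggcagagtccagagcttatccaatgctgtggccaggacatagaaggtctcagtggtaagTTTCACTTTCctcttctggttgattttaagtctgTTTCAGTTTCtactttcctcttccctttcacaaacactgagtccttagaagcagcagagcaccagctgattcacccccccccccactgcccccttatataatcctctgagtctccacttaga
Igtp: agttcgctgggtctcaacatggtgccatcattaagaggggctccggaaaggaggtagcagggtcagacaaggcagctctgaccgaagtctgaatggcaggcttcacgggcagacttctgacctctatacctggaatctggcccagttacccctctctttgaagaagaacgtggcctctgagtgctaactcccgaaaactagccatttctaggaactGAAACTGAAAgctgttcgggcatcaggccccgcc
Gbp7: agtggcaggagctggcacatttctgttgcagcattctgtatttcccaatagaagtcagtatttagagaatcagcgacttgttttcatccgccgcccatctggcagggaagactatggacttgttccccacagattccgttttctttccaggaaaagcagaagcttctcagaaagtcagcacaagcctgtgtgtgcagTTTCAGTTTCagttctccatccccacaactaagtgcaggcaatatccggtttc
Cxcl10: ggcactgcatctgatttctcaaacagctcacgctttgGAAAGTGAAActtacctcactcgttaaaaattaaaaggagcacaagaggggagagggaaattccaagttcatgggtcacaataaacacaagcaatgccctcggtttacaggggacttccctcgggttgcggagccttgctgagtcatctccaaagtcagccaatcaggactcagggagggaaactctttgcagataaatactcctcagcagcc
The element begins 34 bases before the start in Igtp, 53 in Gbp7 and 213 in Cxcl10, and Ifit3 has 2 of them, the first 156 bases before the start. A match is a description of these letters, and neither binding nor activity was measured.

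MHC class I presentation genes leaned higher, with 10 of 13 above 1, 0 past 2-fold in either direction and a median of 0.20. H2-D1 had 178 CPM in PBS and 261 CPM in AEVs (log2 ratio 0.55, 0.36 to 0.74), and B2m, the light chain of class I molecules, had 653 CPM in PBS and 724 CPM in AEVs (log2 ratio 0.15, 0.04 to 0.26). Complement, chemokine and NF-kappaB genes showed no common direction: 8 of 18 were above 1 and the median was -0.03. C3 had 509 CPM in PBS and 348 CPM in AEVs (log2 ratio -0.55, -0.68 to -0.41), and in Gfap-low nuclei 111 and 68.3 CPM, a log2 ratio of -0.70. Il33, an alarmin gene, had 93.0 CPM in PBS and 63.4 CPM in AEVs (log2 ratio -0.55, -0.88 to -0.23). C4b, another complement gene of astrocytes, had 334 CPM in PBS and 324 CPM in AEVs (log2 ratio -0.04, -0.20 to 0.11), an interval that includes 0. Cxcl10 was the only member past 2-fold.

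Genes that respond to glucocorticoids were higher in AEVs in 12 of 18 cases, with a median log2 ratio of 0.54, the highest among the gene lists of more than 3 compared members. The counting interval lay above 1 for 12 and below 1 for 3. Sult1a1, a sulfotransferase gene, had 16 and 87 UMIs, 7.44 CPM in PBS and 42.5 CPM in AEVs (log2 ratio 2.51, 1.73 to 3.38). Sgk1, a kinase gene, had 47.4 CPM in PBS and 107 CPM in AEVs (log2 ratio 1.18, 0.83 to 1.53), and Fkbp5, a co-chaperone of the glucocorticoid receptor, had 110.2 CPM in PBS and 192 CPM in AEVs (log2 ratio 0.80, 0.56 to 1.04). Against them Dusp1 had a log2 ratio of -0.84, Zbtb16 -0.71 and Errfi1 -0.54. In Gfap-low nuclei the median was 0.33. The list shares Mt1 and Mt2 with the next one.

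Antioxidant and metal genes were higher in AEVs in 21 of 25 cases, 0 of them at least 2-fold, with a median of 0.30 and an interval above 1 for 14. Mt1 had 7533 CPM in PBS and 12454 CPM in AEVs (log2 ratio 0.73, 0.70 to 0.75) and Mt2 4014 CPM in PBS and 5960.3 CPM in AEVs (log2 ratio 0.57, 0.53 to 0.61). Metallothioneins, which bind zinc and copper, were among the most abundant transcripts of these nuclei. Prdx6, a peroxiredoxin gene, had 1637 CPM in PBS and 1992 CPM in AEVs (log2 ratio 0.28, 0.22 to 0.35), and the ferritin heavy chain gene Fth1 had 3446 CPM in PBS and 4464 CPM in AEVs (log2 ratio 0.37, 0.33 to 0.42). Hmox1, heme oxygenase 1, had 16.3 CPM in PBS and 29.3 CPM in AEVs (log2 ratio 0.85, 0.22 to 1.49) beside erythroid genes at 74.8 and 208 CPM, whose part in it was not tested. Mt3, the brain form, differed little at 2000.2 and 2039 CPM (log2 ratio 0.03, -0.03 to 0.09). No antioxidant member had an interval below 1, and in Gfap-low nuclei the median was 0.43.

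Immediate early genes were lower in AEVs. Of 10 with enough UMIs 8 had a ratio below 1, 3 were at least 2-fold lower and 0 at least 2-fold higher, and the median was -0.77. Fos had 190 and 75 UMIs, 88.3 CPM in PBS and 36.6 CPM in AEVs (log2 ratio -1.27, -1.68 to -0.88). Jun had 66.5 CPM in PBS and 35.1 CPM in AEVs (log2 ratio -0.92, -1.35 to -0.50), Egr1 29.7 CPM in PBS and 14.2 CPM in AEVs (log2 ratio -1.07, -1.76 to -0.42), and Nr4a3 47 and 7 UMIs (log2 ratio -2.68, -4.07 to -1.52). The exceptions were Ier3 (0.77) and Jund (0.08). In Gfap-low nuclei the median was -1.14, so the direction was the same in both sets. Heat shock and stress genes were split, with 5 of 14 above 1 and a median of -0.19. Cebpb and Hspb1 were at least 2-fold higher, while Hsph1, a chaperone of the heat shock response, had 44.6 CPM in PBS and 17.6 CPM in AEVs (log2 ratio -1.34, -1.94 to -0.78) and Hspa5, the chaperone of the endoplasmic reticulum, had 305 CPM in PBS and 182 CPM in AEVs (log2 ratio -0.74, -0.93 to -0.56). Hspb1 and these chaperones thus stood on opposite sides. Of 13 p53 and cell cycle inhibitor genes 5 were above 1: Cdkn1a had 97.1 CPM in PBS and 162 CPM in AEVs (log2 ratio 0.73, 0.48 to 0.99), whereas Btg2 had 47.4 CPM in PBS and 17.1 CPM in AEVs (log2 ratio -1.47, -2.07 to -0.91). Only 3 of 24 cell cycle genes had enough UMIs to be compared.

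Proteoglycan and matrix genes were mostly lower in AEVs, 14 of 18 below 1, with 2 at least 2-fold lower and a median of -0.23. Ncan and Fn1 were the 2, and Fn1 had 53 CPM in PBS and 25.9 CPM in AEVs (log2 ratio -1.03, -1.53 to -0.55) beside fibroblast markers at 465 and 344 CPM, whose part in it was not tested. Bcan, the brevican gene and a main proteoglycan of astrocytes, had 405 CPM in PBS and 355 CPM in AEVs (log2 ratio -0.19, -0.33 to -0.05), and Vcan had 50.7 CPM in PBS and 43.4 CPM in AEVs (log2 ratio -0.22, -0.64 to 0.19), an interval that includes 0. Timp4, an inhibitor of metalloproteinases, was the clear exception with 365 CPM in PBS and 669 CPM in AEVs (log2 ratio 0.88, 0.75 to 1.00). In Gfap-low nuclei the median of the list was -0.26. Cytoskeleton and adhesion genes were below 1 in 15 of 20 cases with a median of -0.16, Vim and Nes being the upper end.

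Genes of glutamate, GABA and glycine handling showed no common direction, with 8 of 17 above 1 and a median of -0.07. Slc7a10 had 455 CPM in PBS and 259 CPM in AEVs (log2 ratio -0.81, -0.97 to -0.66), the glycine transporter gene Slc6a9 284 CPM in PBS and 173 CPM in AEVs (log2 ratio -0.71, -0.91 to -0.52), and Slc6a11 675 CPM in PBS and 463 CPM in AEVs (log2 ratio -0.55, -0.67 to -0.43). Glul, glutamine synthetase, had 723 CPM in PBS and 908 CPM in AEVs (log2 ratio 0.33, 0.23 to 0.43) and the glutamate transporter gene Slc1a3 507 CPM in PBS and 623 CPM in AEVs (log2 ratio 0.30, 0.18 to 0.42). Slc6a11 and Slc6a9 thus stood lower and Glul higher. Potassium, water and ion genes were above 1 in 12 of 22 cases (median 0.02). Kcnj10, the inward rectifier that carries potassium buffering, had 505 CPM in PBS and 374 CPM in AEVs (log2 ratio -0.43, -0.57 to -0.30), while Lrrc8a, a subunit of the volume-regulated anion channel, had 99.5 CPM in PBS and 193 CPM in AEVs (log2 ratio 0.95, 0.71 to 1.20). Among gap junction and network genes 9 of 16 were above 1 (median 0.06): Gjb6, the other main astrocyte connexin, had 279 CPM in PBS and 426 CPM in AEVs (log2 ratio 0.61, 0.46 to 0.76) and Sparc, a secreted matrix-binding protein gene, 3939 CPM in PBS and 6864 CPM in AEVs (log2 ratio 0.80, 0.76 to 0.84).

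Lipid and cholesterol genes showed no common direction. Of 26, 13 were above 1 and the median was -0.02. Apoe was at 16544 CPM in PBS and 22623 CPM in AEVs (log2 ratio 0.45, 0.43 to 0.47) and Clu at 2788 CPM in PBS and 4665 CPM in AEVs (log2 ratio 0.74, 0.70 to 0.79), both higher in AEVs. On the lower side were Insig1 at -0.95, Lcat at -0.90, Fads1 at -0.60, Srebf2 at -0.55 and Hmgcs1 at -0.48 in log2, while Srebf1 was at 0.18 and Scd1 at 0.15. Apod had 383 CPM in PBS and 1118 CPM in AEVs (log2 ratio 1.55, 1.43 to 1.66), but its level here was 0.045 of that in fibroblast-marked nuclei, and how much of it comes from free RNA was not tested. Energy metabolism genes had a median of 0.00, with 11 of 23 above 1. Pfkfb3, which drives glycolysis, had 75.8 CPM in PBS and 47.8 CPM in AEVs (log2 ratio -0.66, -1.04 to -0.29).

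Signalling and lineage genes differed little as groups. TGF-beta and BMP genes were above 1 in 9 of 21 cases (median -0.05), with Tgfb3 at 54 and 12 UMIs (log2 ratio -2.10, -3.14 to -1.18) as the only one past 2-fold. JAK-STAT3 genes were above 1 in 6 of 15 (median 0.00), and Stat3, a factor that border-forming astrocytes need, had 188 CPM in PBS and 166 CPM in AEVs (log2 ratio -0.17, -0.39 to 0.04), an interval that includes 0. Trophic genes were above 1 in 6 of 17 (median -0.14), with Fgf1 at 112 CPM in PBS and 67.3 CPM in AEVs (log2 ratio -0.74, -1.05 to -0.43) and Cntf at 65.5 CPM in PBS and 96.1 CPM in AEVs (log2 ratio 0.55, 0.23 to 0.87). Lineage and Notch genes were above 1 in 7 of 19 (median -0.11), and the interval lay below 1 for 9 and above 1 for 1. Zbtb20, a transcription factor of astrocyte maturation, had 2359 CPM in PBS and 1679 CPM in AEVs (log2 ratio -0.49, -0.55 to -0.43), and Hes5, a Notch target, 59 and 23 UMIs (log2 ratio -1.29, -2.05 to -0.57). Clock genes were above 1 in 11 of 19 (median 0.07), with Cry1 at 1.05, Per1 at 0.62 and Dbp at -0.65 in log2. White-matter genes were above 1 in 5 of 13 (median -0.23) and grey-matter genes in 4 of 14 (median -0.19), so neither pole of the contrast with Gfap-low nuclei stood higher in AEVs.

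**Figure D5:**
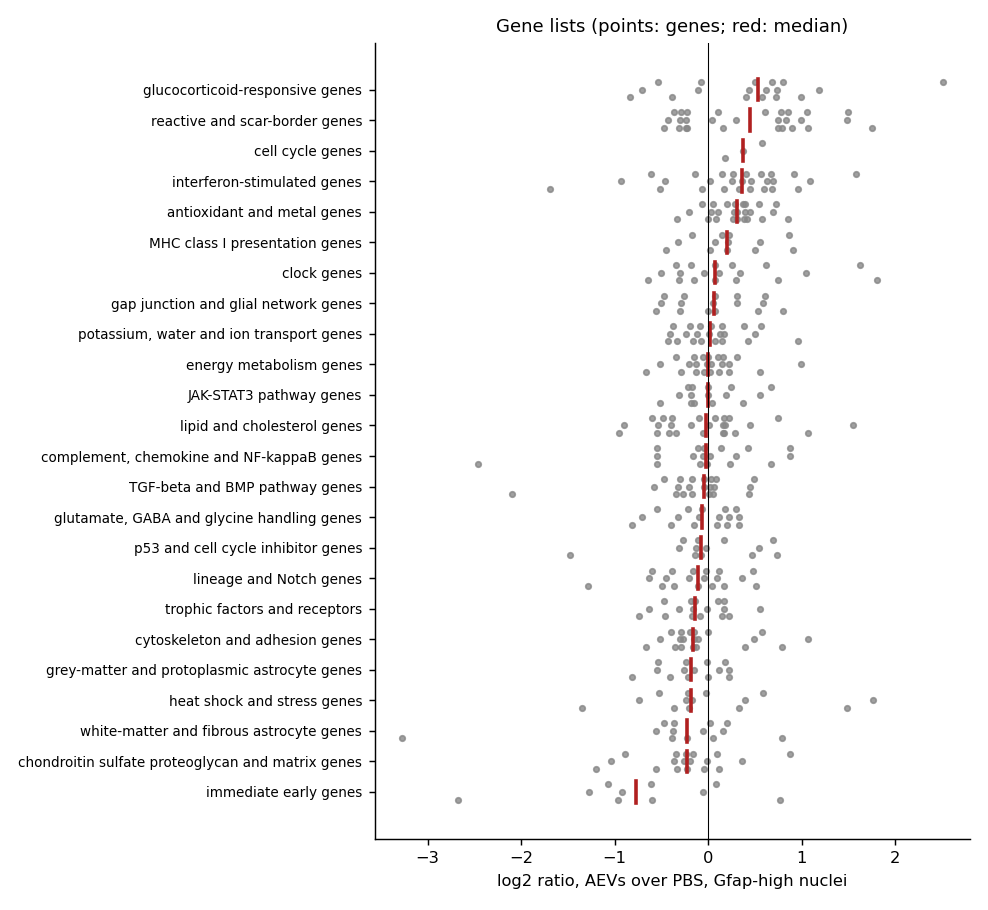
Log2 ratio of AEVs over PBS in Gfap-high nuclei for each gene (points) of the gene lists, with the list median as a red line. Glucocorticoid-responsive (0.54) and reactive genes (0.45) have the highest medians among lists of more than 3 genes and immediate early genes the lowest (-0.77).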

How the data were processed

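The authors deposited UMI counts per gene and barcode, one matrix for each of the 2 libraries, as whole numbers with no normalization per the file values. The submitters' processing notes name the mm10 genome build and Seurat, and names of the aligner and counter were not given in the sources used here. Of 32285 gene identifiers, 32235 matched the mouse annotation used for coordinates.

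Nuclei were chosen by the rule in the report, and their UMIs were summed per library and divided by the total of those nuclei. Genes with at least 50 UMIs over the nuclei compared entered a comparison. Ratios are of CPM. A gene with no UMI in a set had its count there set to 3, and smaller counts than 3 were otherwise left as they were. No ratio was given where both counts were at or under 3. Exact Poisson, Clopper-Pearson and conditional binomial intervals at 95% were computed with scipy 1.17.1 in Python 3.11.15 (numpy 2.4.6, pandas 2.3.3). They cover counting error only, since UMIs of one nucleus are not independent samples of a treatment. With 1 library per group no test was made, and there is no p-value. Calculations were tested on simulated data.

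Nuclei of other types were sorted by the largest of the marker list sums, with at least 5 UMIs and at least 2 times the next list. Doublets were called in each library with Scrublet in scanpy 1.11.5 and kept. Named genes are the 12 highest and 12 lowest ratios after 3 filters. A gene needed 100 UMIs or more on its higher side, a UMI in 5% or more of the nuclei there, and a level of 0.25 or more of its level in the class of nuclei that had most of it. Mitochondrial, ribosomal protein, hemoglobin and predicted genes and the genes of the rule were left out. Members of the gene lists are named where they have the most UMIs or the highest and lowest ratios, and a few others of known function were named after their values were seen. The nuclei, the gene lists and the comparisons were chosen with earlier results of these data known. Leaving out shared barcodes, and the 5 nuclei highest in each gene, was added after seeing the data. Promoter sequences are from RefSeq, build GRCm38.p6.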

Additional observations from a re-analysis of the deposited data

Results flagged for a closer look

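Of 397 named or listed genes compared in both sets, 102 had a ratio of AEVs over PBS on opposite sides of 1 in Gfap-high and Gfap-low nuclei. The share of all genes on opposite sides was not computed, so the counts in this section have no background to stand against. For 2 of these both counting intervals also lay clear of 1, on opposite sides, with a ratio past 2-fold in at least one set, and the difference was not tested. Hes5, a Notch target, had a log2 ratio of -1.29 in Gfap-high and 1.77 in Gfap-low nuclei. Tm4sf1, a tetraspanin-like membrane protein gene of reactive astrocytes, had -0.43 in Gfap-high and 2.06 in Gfap-low nuclei. The 5 nuclei with most Hes5 held 42.4% of its 59 UMIs in PBS Gfap-high nuclei and 43.5% of 23 in AEVs.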

How the results depend on the processing

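There were 15 other settings, 2 of them chosen after seeing the data, and each result had a value under 9 to 14 of them. A ratio, share or median was taken to move when it left the main counting interval (for a median, the medians of its genes' interval bounds), and a count when it changed by over 1.5 times. It was taken to reverse when the main interval excluded a ratio of 1 and the value crossed to the other side of 1. Counts of genes, and results whose main interval included 1, could therefore not reverse. For AEVs over PBS, 11 of 46 shares and counts, 2 of 331 list medians and 31 of 312 named-gene ratios moved, and 0 reversed. Against Gfap-low nuclei, 6 of 26 counts, 26 of 620 medians and 67 of 264 named-gene ratios moved, and 7 medians and 12 ratios reversed. Genes at least 2-fold higher in AEVs numbered 128, and 63 with nuclei that carried markers of other types left out, 57 with each nucleus thinned to 1000 UMIs, 244 with a mean over nuclei, and 349 and 31 with at least 20 and at least 200 UMIs per gene. Genes at least 2-fold lower numbered 83, and 33, 40, 170, 246 and 16 under the same 5 settings. Where nuclei were left out or thinned, the 50-UMI limit was applied to the reduced sums, so the number of genes compared changed as well. Thinning came before the rule was applied, so the nuclei picked changed too, and these values do not show depth alone. The share of Gfap-high nuclei had a ratio of 1.11 in place of 0.921 with nuclei of other markers left out. It thus crossed 1 but was not counted as reversed, since its main interval included 1. Against Gfap-low nuclei, 103 genes were at least 2-fold higher when thinned and 103 with at least 200 UMIs, and 135 were at least 2-fold lower with at least 10 astrocyte UMIs, 114 with nuclei of other markers left out, 19 when thinned and 187 with at least 200 UMIs. In that contrast some values changed direction. For genes named as lower, the higher of the 2 libraries' log2 ratios is given. With nuclei of other markers left out it was 0.49 for Slc4a10, 1.81 for Arhgap20, 1.71 for Adamtsl3, 2.54 for Fn1, 0.14 for Tanc1, 0.64 for Reps2 and 0.76 for Grk5. When thinned it was 1.38 for Arhgap20, 0.75 for Fn1, 0.12 for Tanc1 and 0.45 for Grk5, and with a mean over nuclei 0.015 for Slit2. Medians in PBS that reversed were 0.15 for glutamate, GABA and glycine genes with Gfap at 5 or more per 10000. The proteoglycan and matrix median became 0.11 with at least 10 astrocyte UMIs, 0.31 with nuclei of other markers left out and 0.50 when thinned, and the immediate early median 0.33, 1.81 and 1.11. The cause was not tested. Leaving out the barcodes found in both libraries moved none of the results it was run on past the limit. With 1 library per group, no replicate could be left out and no paired analysis was possible. At these depths a gene under 50 UMIs, such as most cell cycle genes, could not be compared.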
